A study of Mus musculus with 11 samples.

Results

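Adenosine and purine receptors were examined in BV2, an immortalized microglial line of the mouse, after treatment with amino-terminal fragments of human apolipoprotein E. The members were 10 of the 36529 genes listed in each sample, namely Adora1, Adora2a, Adora2b and Adora3 for adenosine, P2rx1, P2rx4 and P2rx7 for the ATP-gated channels, and P2ry1, P2ry2 and P2ry6 for the nucleotide receptors coupled to G proteins. They were taken by symbol as members of these families, and the group was chosen by the counts of Adora2a, which were near 0 in controls and higher with both fragments. The levels of Adora2a with treatment are therefore given as a description, without a test. RNA was sequenced in 11 samples. In one experiment, 3 samples received nApoE4 1–151 (residues 1 to 151 of the apoE4 form) at 25 μg/ml for 5 h and 3 untreated samples were their controls. In another experiment, 2 samples received nApoE3 1–151 at the same dose for the same time, with 3 untreated controls of their own.

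Treated cells received a His-tagged fragment, and the fragments differ from each other at a single residue. The methods state that untreated cells were given conditioned media, whereas the labels name a PBS vehicle. BV2 is 1 immortalized line labelled as C57BL/6, so no animal was compared with another. Since each fragment had an experiment of its own, a difference between fragments and a difference between experiments cannot be told apart. The labels do not state that the samples came from separate cultures, so the tests measure the spread between these samples, which may be technical. The nApoE4 experiment held 39732710 to 44162511 counts on genes per sample and the nApoE3 experiment, which was deeper, 55809688 to 69768666. No pair of replicates agreed within sampling noise, so each was counted as a sample. The nApoE4 controls replicate 2 stood apart from the others of its group, with a chi-square per degree of freedom of 23.6 and 43.8 against them, where the other two gave 7.29 and all other pairs of replicates 3.02 to 11.2. Without it, 6 of 6 tested receptors passed with nApoE4, 5 of 6 for the difference between the fragments and 6 of 6 between the control groups, in place of 6, 4 and 5.

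Of 13 microglia and macrophage markers, 9 were above 1 CPM (counts per 1000000 counts of a library, scaled by the TMM method) in every sample, among them Csf1r, Itgam and Ptprc. The other 4, Aif1, Cx3cr1, Sall1 and Siglech, had a mean of at most 0.600 CPM in every group. Of the astrocyte, neuron and lymphocyte markers, none of 4 in each list was above 1 CPM in every sample, whereas 2 of 4 oligodendrocyte markers and 1 of 4 endothelial markers were. The astrocyte list summed to 1.05 to 1.39 CPM in the controls of both experiments, 6.02 to 7.02 CPM with nApoE4 and 4.36 to 4.53 CPM with nApoE3. In the treated samples nearly all of this was Slc1a2, a glutamate transporter, while Gfap and Aqp4 stayed under 0.1 CPM. Aldh1l1 held 60 counts over all samples. By edgeR's quasi-likelihood test its log2 fold change with nApoE4 was −1.20 (adjusted p = 0.170). It was higher in the nApoE4 controls than in the nApoE3 controls (log2 difference 3.33, adjusted p = 0.00204). The endothelial list summed to 150 to 177 CPM in the nApoE4 controls, 62.4 to 71.7 CPM with nApoE4, 63.9 to 66.3 CPM in the nApoE3 controls and 42.8 to 47.9 CPM with nApoE3, of which Kdr made up most and Cldn5 was at 0. The neuron list summed to 1.93 to 2.49 CPM in the nApoE4 controls and 5.26 to 6.27 CPM with nApoE4, mostly from Tubb3, while Rbfox3 and Snap25 were at a mean below 0.1 CPM in both. The part of these markers in the results was not tested.

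ATP leaves stressed or dying cells and acts as a danger signal for microglia. Channels of the P2X family open when ATP binds, while P2Y receptors respond to ATP, ADP, UTP or UDP through G proteins and set phagocytosis and movement towards injury. Enzymes on the cell surface then trim ATP and ADP to AMP and on to adenosine, which signals through receptors that raise (Adora2a and Adora2b) or lower (Adora1 and Adora3) cyclic AMP. In immune cells, the receptors that raise cyclic AMP are known to restrain inflammatory output, and their genes are known to respond to inflammatory stimuli.

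Adora2a, the high-affinity adenosine receptor that raises cyclic AMP, held almost no counts in untreated cells and was well measured in every treated sample. Its counts were 3, 0 and 1 in the nApoE4 controls and 350, 349 and 331 with nApoE4. In the other experiment they were 0, 3 and 5 in the controls and 211 and 196 with nApoE3. Thus every treated sample was far above every control, and the controls of both experiments lay at or near the smallest level that could be measured. Mean levels were 0.0306 ± 0.0361 CPM in the nApoE4 controls and 8.30 ± 0.123 CPM with nApoE4 (SD, n = 3 each). They were 0.0457 ± 0.0444 CPM in the nApoE3 controls (SD, n = 3) and 3.55 ± 0.11 CPM with nApoE3 (SD, n = 2).

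The fold change of Adora2a has wide limits. For nApoE4, the ratio of summed counts (1030 against 4, scaled to library size) was 278, with a 95% counting interval of 108 to 1023. Against a floor of 3 counts per control sample, or 0.0671 CPM, the mean with nApoE4 was 124-fold higher. For nApoE3, the ratio of summed counts (407 against 8) was 83.8, with a 95% counting interval of 42.1 to 195, and the ratio of mean levels was 77.6. These intervals cover counting error only. As the controls held so few counts, the ratio for nApoE4 was 759 without nApoE4 controls replicate 1 and 185 without replicate 2, and that for nApoE3 was 52.5 without nApoE3 controls replicate 1 and 157 without replicate 3. The Adora2a gene lies on chromosome 10 from 75316877 to 75334792 (plus strand, GRCm38.p6), where no other gene of the annotation overlaps it. In bulk RNA, a change in the number of cells that carry a transcript and a change in the amount per cell cannot be told apart.

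**Figure D1:**
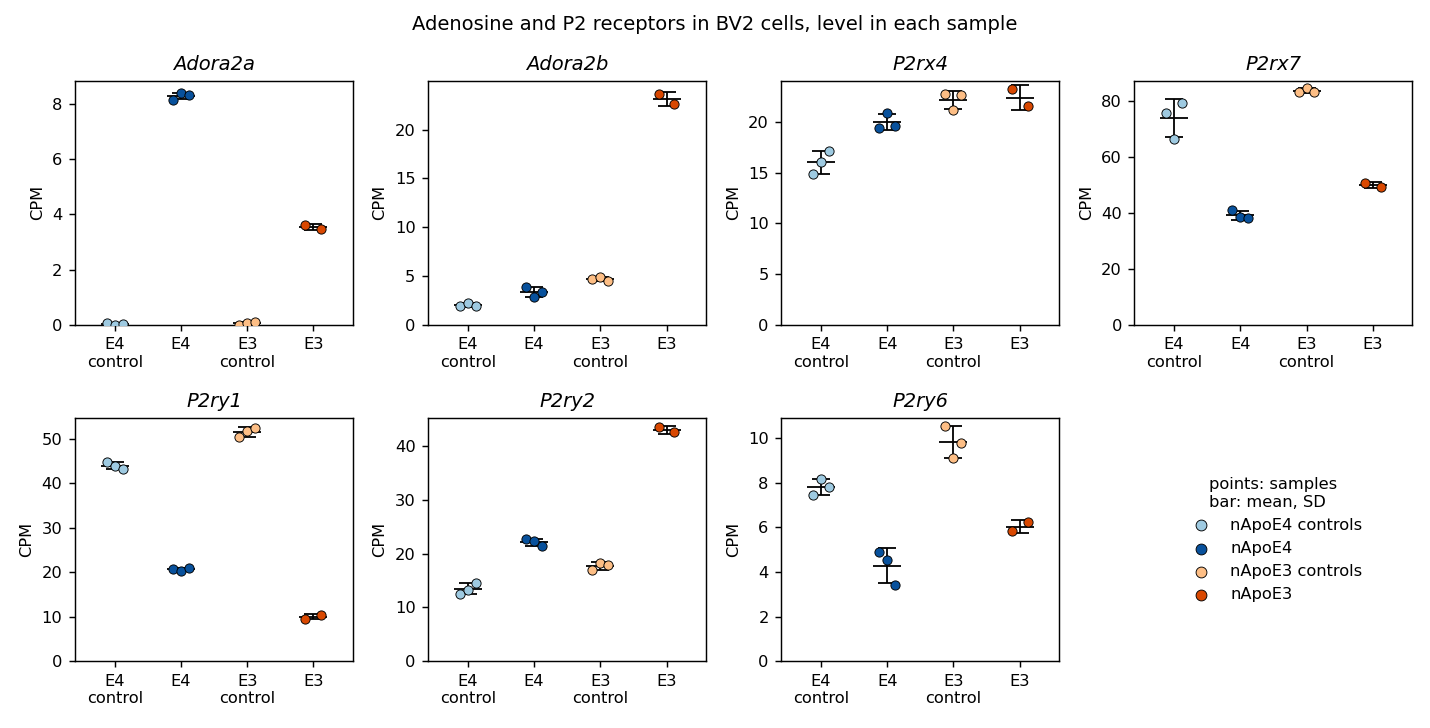
Level of 7 receptor genes in each sample, in CPM on a linear axis from 0, with 1 panel per gene. Points are samples, and bars give the mean and SD of each group (n = 3, or n = 2 for nApoE3). Adora2a lies at or near 0 in all control samples and between 3.47 and 8.40 CPM in the treated samples, and Adora2b with nApoE3 lies well above the other 3 groups.

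The remaining members were named by family, with earlier results of these data known, and other P2 receptors are described further on. These remaining members were tested over all genes with edgeR's quasi-likelihood test and Benjamini-Hochberg adjustment. With nApoE4, all 6 that had enough counts to be tested changed at an adjusted p below 0.05, with 3 higher and 3 lower, where 57.2% of all tested genes did so (28.6% higher and 28.6% lower). With nApoE3, 5 of 6 changed, 2 higher and 3 lower, where 67.7% of all tested genes did so (33.1% higher and 34.6% lower). Treated and control samples did not overlap for any of the 6 with nApoE4 (63.6% of all tested genes did not overlap), nor for 5 of them with nApoE3 (77.6%). Their median log2 fold change was −0.27 with nApoE4 and −0.35 with nApoE3, against 0.0013 and −0.0026 for all tested genes. Adora2b and P2ry2 rose with both fragments, and P2rx7, P2ry1 and P2ry6 fell with both. Changes above 2-fold were fewer, with 1 receptor for nApoE4 (17.7% of all tested genes) and 3 for nApoE3 (16.2%). The 3 untested members, Adora1, Adora3 and P2rx1, are described further on.

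Adora2b, the low-affinity adenosine receptor that also raises cyclic AMP, was measured at 1.88, 2.27 and 1.95 CPM in the nApoE4 controls and at 3.85, 2.84 and 3.40 CPM with nApoE4. In the nApoE3 experiment it was at 4.65, 4.89 and 4.43 CPM in the controls and at 23.7 and 22.7 CPM with nApoE3. Treated samples were above their controls in both experiments, and the nApoE3 samples stood far above all others. The log2 fold change was 0.73 with nApoE4 (standard error 0.16, adjusted p = 0.00312) and 2.31 with nApoE3 (standard error 0.057, adjusted p = 3.44e-12), or 1.66-fold and 4.94-fold. The change with nApoE3 was the larger, with a difference in log2 fold change (nApoE4 minus nApoE3) of −1.59 (standard error 0.16, adjusted p = 1.03e-05). By level and not by change, the order of the treated groups was the other way round for Adora2a, with 8.30 CPM for nApoE4 and 3.55 CPM for nApoE3. For Adora2a this is a description without a test.

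P2ry2, the receptor for ATP and UTP that is known for drawing phagocytes towards dying cells, was at 12.5, 13.3 and 14.6 CPM in the nApoE4 controls and at 22.7, 22.3 and 21.4 CPM with nApoE4. Its levels were 16.9, 18.2 and 18 CPM in the nApoE3 controls and 43.4 and 42.5 CPM with nApoE3. As for Adora2b, the treated samples were higher in both experiments, and highest with nApoE3. P2ry2 rose by 0.72 on the log2 scale with nApoE4 (standard error 0.076, adjusted p = 2.98e-05) and by 1.28 with nApoE3 (standard error 0.042, adjusted p = 5.16e-11). The difference of these changes was −0.57 (standard error 0.087, adjusted p = 0.000341).

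P2ry1, a receptor for ADP that releases calcium from stores, moved the other way. Its levels were 44.7, 43.8 and 43.1 CPM in the nApoE4 controls and 20.7, 20.2 and 21.0 CPM with nApoE4. In the nApoE3 experiment, 50.3, 51.7 and 52.4 CPM in the controls stood against 9.62 and 10.4 CPM with the fragment. The treated samples were thus well below the controls, and the lowest samples were those with nApoE3. The log2 fold change was −1.08 with nApoE4 (standard error 0.056, adjusted p = 1.83e-07) and −2.37 with nApoE3 (standard error 0.047, adjusted p = 4.78e-13), which is 2.12-fold and 5.16-fold lower. The fall was larger with nApoE3 (difference 1.27, standard error 0.071, adjusted p = 8.60e-08).

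P2rx7, an ATP-gated channel that needs high ATP and is known for triggering the inflammasome and the release of interleukin-1β, also fell. It was at 75.6, 66.2 and 79.2 CPM in the nApoE4 controls and 40.9, 38.3 and 37.9 CPM with nApoE4. The nApoE3 controls were at 82.9, 84.6 and 83.1 CPM, and the nApoE3 samples were at 50.7 and 49.1 CPM. No treated sample reached the lowest control. The log2 fold change was −0.91 with nApoE4 (standard error 0.077, adjusted p = 5.94e-06) and −0.75 with nApoE3 (standard error 0.030, adjusted p = 3.74e-10). A difference between the fragments was not found for P2rx7 (−0.17, 95% interval −0.35 to 0.0061, adjusted p = 0.186), although it passed the threshold without nApoE4 controls replicate 2 (−0.24, adjusted p = 0.00607). This replicate, which stands apart from its group, held the lowest P2rx7 level of the controls.

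P2ry6, the UDP receptor known in microglia for promoting phagocytosis, had lower levels than P2ry1 and P2rx7 per exon length and fell with both fragments. Its levels were 7.44, 8.16 and 7.82 CPM in the nApoE4 controls and 4.92, 4.52 and 3.43 CPM with nApoE4. They were 10.6, 9.12 and 9.79 CPM in the nApoE3 controls and 5.82 and 6.23 CPM with nApoE3. Each treated sample was below all controls of its experiment. The log2 fold change was −0.86 with nApoE4 (standard error 0.13, adjusted p = 0.000405) and −0.71 with nApoE3 (standard error 0.080, adjusted p = 5.69e-06). The difference of −0.16 had a 95% interval of −0.48 to 0.17 (adjusted p = 0.532).

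P2rx4, an ATP-gated channel of microglia known from the spinal response to nerve injury, rose slightly with nApoE4 alone at the threshold used. It was at 14.9, 16.1 and 17.1 CPM in the nApoE4 controls and at 19.4, 20.9 and 19.6 CPM with nApoE4. The nApoE3 controls were at 22.8, 21.2 and 22.7 CPM and the nApoE3 samples at 23.3 and 21.6 CPM, so that these groups overlapped. The log2 fold change was 0.33 with nApoE4 (standard error 0.075, adjusted p = 0.00454) and 0.0080 with nApoE3 (95% interval −0.089 to 0.10, adjusted p = 0.896). The difference between the fragments was 0.31 (standard error 0.093, adjusted p = 0.0262). This call was lost when nApoE4 controls replicate 1, nApoE3 controls replicate 1, nApoE3 controls replicate 3 or nApoE3 replicate 2 was left out (adjusted p = 0.0625, 0.0659, 0.0621 and 0.135), and with a replicate block (0.29, adjusted p = 0.106). Of the P2rx4 span, 51.1% is shared with Camkk2, a gene with 53843 counts over all samples against 11404 for P2rx4, and reads from the shared stretch cannot be assigned with certainty.

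Over the 6 tested receptors, the difference between the fragments passed for 4, with 2 in each direction, where 28.3% of all tested genes passed (14.4% positive and 13.9% negative). It was above 2-fold for Adora2b and P2ry1, against 5.93% of all tested genes. For P2rx7 and P2ry6 the fragments were not distinguished. Adora2b, P2ry1 and P2ry2 had the larger change with nApoE3, and each of these 3 differences also passed in all alternative analyses at this threshold.

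**Figure D2:**
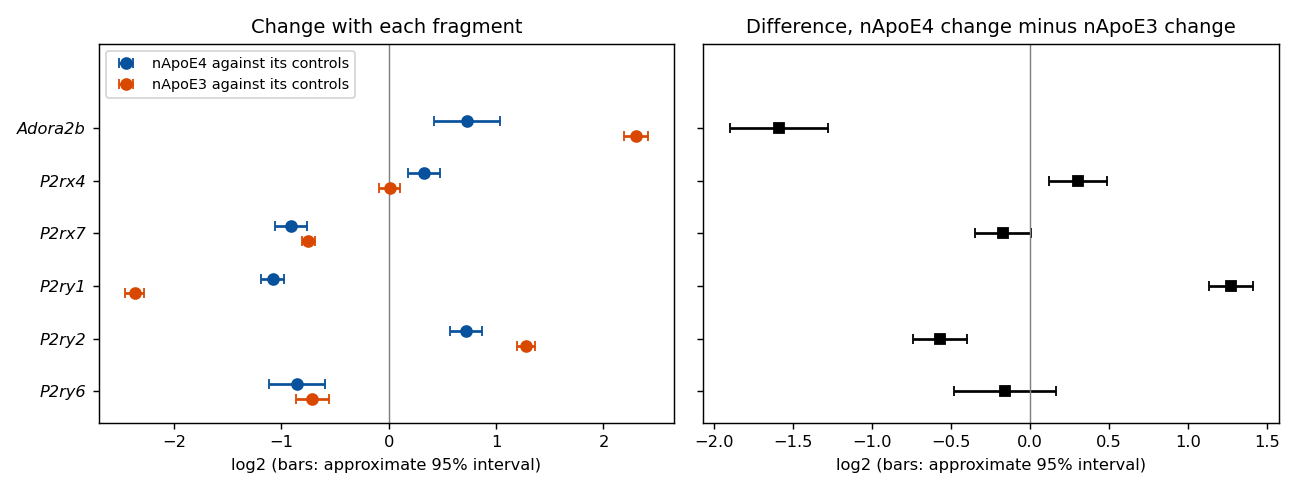
Log2 fold change of the 6 tested receptors with each fragment against its own controls (left, circles) and the difference of these changes (right, squares), with approximate 95% intervals as bars. Adora2b and P2ry2 lie above 0 and P2rx7, P2ry1 and P2ry6 below 0 for both fragments, and the intervals of the difference for P2rx7 and P2ry6 include 0.

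The levels of the untreated cells were also compared, since each experiment had controls of its own. Differences in the cells and in library preparation or sequencing cannot be told apart between the experiments. Of the 6 tested receptors, 5 were lower in the nApoE4 controls than in the nApoE3 controls and none was higher, where 69.3% of all tested genes passed (34.9% higher and 34.4% lower). Only Adora2b differed by more than 2-fold, as did 17.9% of all tested genes. The largest gap was for Adora2b, with 2.03 ± 0.211 against 4.66 ± 0.230 CPM (SD, n = 3 each), a log2 difference of −1.18 (standard error 0.11, adjusted p = 3.47e-05). P2rx4, P2ry1, P2ry2 and P2ry6 were lower by smaller steps, with log2 differences from −0.46 to −0.21 (adjusted p of 0.00675 or less). For P2rx7 the difference was −0.16 (95% interval −0.30 to −0.032, adjusted p = 0.0585), and it passed in 6 of 11 alternative analyses (−0.095, adjusted p = 0.0227 without nApoE4 controls replicate 2). The samples of the 2 control groups did not overlap for any of the 6 (74.1% of all tested genes did not overlap). Adora2a held too few counts in either control group to be tested there.

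To compare the 7 receptors with each other, levels were divided by the length of exon that no other gene shares. Whether reads were counted over exons or over whole gene spans, introns included, is not stated. Exon length may therefore not be the length counted, and the order between genes is uncertain. P2rx3, described further on, was not ranked, as its reads and those of a neighbour cannot be told apart. Of the 7, P2rx7 was the most abundant in the nApoE4 controls (12.6 CPM per kb), followed by P2ry1 (10.2 CPM per kb), P2ry2 (3.88) and P2rx4 (3.87), which overlapped, and then P2ry6 (2.70), Adora2b (1.10) and Adora2a (0.0100). The order in the nApoE3 controls was alike, with P2rx7 at 14.3, P2ry1 at 12, P2rx4 at 5.37 and P2ry2 at 5.09, which overlapped, then P2ry6 at 3.40, Adora2b at 2.53 and Adora2a at 0.0149 CPM per kb. Of these 7, P2rx7 and P2ry1 thus had the highest levels per exon length in untreated cells and the 2 adenosine receptors the lowest. With nApoE4, P2rx7 (6.70 CPM per kb) and P2ry2 (6.37) overlapped at the top of the 7, P2rx4 (4.84) and P2ry1 (4.81) overlapped next, and Adora2a (2.71) stood above Adora2b (1.82) and P2ry6 (1.49), which overlapped. With nApoE3, Adora2b (12.6 CPM per kb) and P2ry2 (12.4) overlapped at the top of the 7, above P2rx7 (8.55), P2rx4 (5.42), P2ry1 (2.33), P2ry6 (2.09) and Adora2a (1.16). By mean level per exon length, Adora2b therefore went from rank 6 to rank 1 of 7 receptors in the nApoE3 experiment, and P2ry1 from rank 2 to rank 5.

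**Figure D3:**
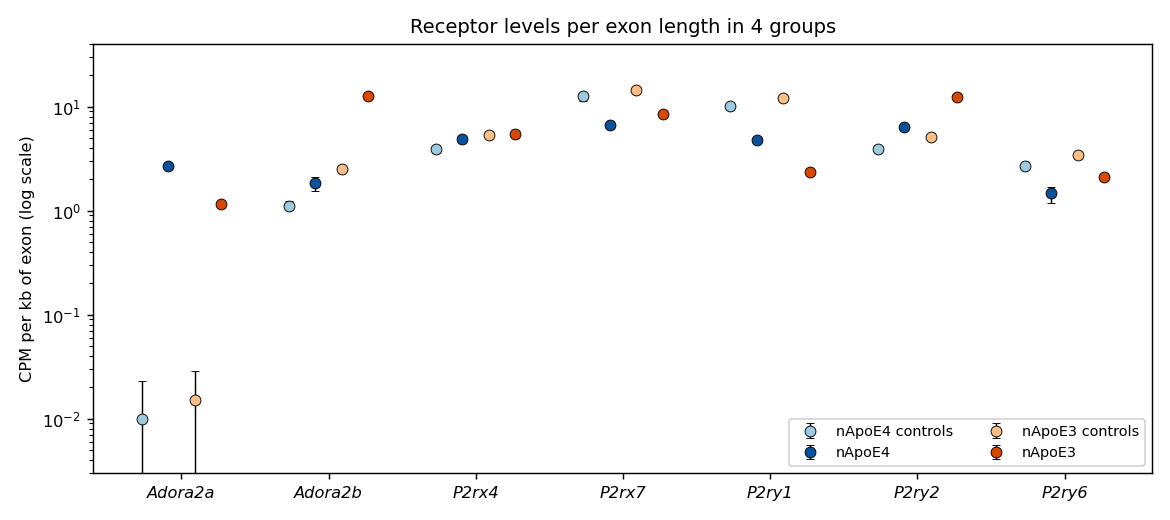
Mean level of 7 receptors per kb of exon not shared with another gene, on a log axis, for the 4 groups, with bars from the lowest to the highest sample (bars that reach 0 run to the lower edge). Adora2a lies about 0.01 CPM per kb in both control groups and above 1 CPM per kb in both treated groups, and P2ry1 and P2rx7 are lower with either fragment.

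Promoters of the receptors that rose with both fragments (Adora2b and P2ry2) and of those with the largest falls (P2ry1 and P2rx7) are shown so that their sequences can be set beside these changes. Each is the 250 bases before the RefSeq start of the gene in GRCm38.p6, written 5′ to 3′ on the strand of the gene, at chr11:62248734-62248983 (plus strand) for Adora2b, chr7:101012054-101012303 (minus strand) for P2ry2, chr3:61002535-61002784 (plus strand) for P2ry1 and chr5:122643677-122643926 (plus strand) for P2rx7. Capitals mark matches to a GC box (GGGCGG on either strand) or to an AP-1 site (TGANTCA).
Adora2b promoter: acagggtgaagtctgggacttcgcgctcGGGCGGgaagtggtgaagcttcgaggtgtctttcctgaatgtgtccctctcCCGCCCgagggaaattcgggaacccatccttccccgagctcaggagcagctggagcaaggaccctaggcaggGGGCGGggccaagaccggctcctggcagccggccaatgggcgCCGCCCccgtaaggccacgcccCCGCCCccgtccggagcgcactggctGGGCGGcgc
P2ry2 promoter: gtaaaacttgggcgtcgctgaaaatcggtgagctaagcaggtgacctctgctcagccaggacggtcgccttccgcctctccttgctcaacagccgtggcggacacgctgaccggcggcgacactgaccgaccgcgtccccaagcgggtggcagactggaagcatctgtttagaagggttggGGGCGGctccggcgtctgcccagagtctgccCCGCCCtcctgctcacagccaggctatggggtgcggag
P2ry1 promoter: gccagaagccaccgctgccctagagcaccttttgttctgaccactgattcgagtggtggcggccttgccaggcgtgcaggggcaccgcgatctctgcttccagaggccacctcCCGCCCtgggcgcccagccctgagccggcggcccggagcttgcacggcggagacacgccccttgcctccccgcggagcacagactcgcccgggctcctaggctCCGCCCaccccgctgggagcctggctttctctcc
P2rx7 promoter: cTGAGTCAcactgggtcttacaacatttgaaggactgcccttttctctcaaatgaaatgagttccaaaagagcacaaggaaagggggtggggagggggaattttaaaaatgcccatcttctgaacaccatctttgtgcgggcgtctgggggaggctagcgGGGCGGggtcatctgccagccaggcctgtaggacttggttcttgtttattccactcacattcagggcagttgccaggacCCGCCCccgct
The table of promoters held an entry for 8 of the 10 members and none for Adora2a or P2ry6. The GC box occurred 6 times in the Adora2b promoter and 2 times in each of the P2ry2, P2ry1 and P2rx7 promoters, and 32.7% of all 32851 listed promoters held at least 1. The AP-1 site occurred once in the P2rx7 promoter, and 6.75% of all promoters held it. For P2ry2 and P2rx7, 2 promoters each were listed and the first is shown, so these counts depend on the entry taken. The second P2ry2 promoter held further GC boxes at −53 and −43 from its own start. The second P2rx7 promoter held no match to the GC box or the AP-1 site. None of the 4 windows held a kappaB site (7.25% of all promoters), a cAMP response element (TGACGTCA, 1.55%) or an interferon-stimulated response element (GAAA, any 2 bases and GAAA, 2.98%), on either strand. Searched motifs did not share a base in these 4 windows. A match is a description of the letters and not a binding site, and its part in the changes was not tested.

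The 3 remaining receptors held almost no counts. Adora1, an adenosine receptor that lowers cyclic AMP, had 2 counts in nApoE3 controls replicate 3 and 0 in the other 10 samples. P2rx1, a fast ATP-gated channel, had 5 counts in nApoE3 controls replicate 2, 1 count in nApoE4 replicate 3 and 0 in the other 9. A count of 0 allows up to 3 counts, or 0.0755 CPM in the shallowest sample, by counting error alone. Adora3, the other receptor that lowers cyclic AMP, was listed at 0 in all 11 samples, but the gene lies wholly inside the span of Tmigd3, which held 1482 counts over all samples. Of 4403 genes that lie wholly inside another gene of the annotation, 97.5% were at 0 in every sample, against 21% of 21058 genes that overlap none. The 0 of Adora3 therefore cannot be read as its level.

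The same limit touched receptors for which microglia are known. P2ry12, the ADP receptor that steers microglial processes towards injury, was listed at 0 in all samples, as were P2ry13, another ADP receptor, and P2ry14, which binds UDP-glucose. All of them lie wholly inside the span of Med12l on chromosome 3 (59005419 to 59318446), so none of their levels can be read from these counts. Among the other P2 receptors, P2rx3 was the only gene tested in both experiments and was singled out after its values were seen. It was at 15.8 to 17.3 CPM in the nApoE4 controls, 23.7 to 26.8 CPM with nApoE4, 52.4 to 53.8 CPM in the nApoE3 controls and 30.2 to 31.4 CPM with nApoE3. P2rx3 thus rose with nApoE4 (log2 fold change 0.62, adjusted p = 8.15e-05) and fell with nApoE3 (−0.79, adjusted p = 8.82e-10), with a difference of 1.40 (adjusted p = 1.79e-07). Its span ends 11 bases from the start of Ssrp1 on the opposite strand, and reads of the neighbours cannot be told apart where the strand setting of the counting is not stated.

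The rest of the pathway was described with 5 further lists of 87 genes, of which 86 were in the files. These cover other P2 receptors, ectonucleotidases, adenosine uptake and metabolism, nucleotide release, and G protein, cyclic AMP and calcium signaling. With nApoE4, 42 of 59 tested genes changed (16 higher, 26 lower), and with nApoE3, 46 of 61 changed (14 higher, 32 lower). The shares over all tested genes were 57.2% and 67.7%, as given above. The median log2 fold change of the lists was −0.12 and −0.13. The difference between the fragments passed for 23 of 61 genes, 14 positive and 9 negative, where 28.3% of all tested genes passed (14.4% positive and 13.9% negative). With a replicate block, 14 of the 61 genes passed, and over all 15287 tested genes 2307 passed in place of 4331.

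Among ectonucleotidases, which make adenosine outside the cell, 4 of 5 tested genes changed with each fragment, 2 higher and 2 lower, beside 57.2% of all tested genes for nApoE4 and 67.7% for nApoE3. The median log2 fold change was −0.0099 and 0.56. Entpd1, which trims ATP and ADP to AMP, was at 44.1, 46.7 and 46.6 CPM in the nApoE4 controls and at 33.0, 32.1 and 31.8 CPM with nApoE4. In the nApoE3 experiment it was at 36.5, 35.1 and 37.8 CPM in the controls and at 20.2 and 20.1 CPM with the fragment. Entpd1 thus fell with both, by 0.50 (adjusted p = 4.31e-05) and 0.86 (adjusted p = 3.10e-09) on the log2 scale, and by more with nApoE3 (difference 0.35, adjusted p = 0.00199; 0.0519 with a replicate block). Nt5e, which turns AMP into adenosine, was low in all groups (mean 0.118 to 0.523 CPM), with log2 fold changes of −0.0099 (adjusted p = 0.986) and 0.56 (adjusted p = 0.366). Their 95% intervals, −0.82 to 0.80 and −0.47 to 1.59, leave its direction undetermined.

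The ectonucleotidases that rose were Cd38 and Acpp. Cd38, which degrades extracellular NAD and can feed adenosine production, went from 1.57, 1.87 and 1.26 CPM to 24.4, 24.5 and 24.9 CPM with nApoE4. It went from 5.14, 5.17 and 5.78 CPM to 48 and 45.3 CPM with nApoE3. The log2 fold changes were 3.97 (adjusted p = 5.31e-09) and 3.12 (adjusted p = 1.64e-13), and their difference was 0.85 (adjusted p = 0.000466). Acpp, an acid phosphatase that can dephosphorylate AMP, rose by 2.91 (adjusted p = 7.15e-05) and 1.70 (adjusted p = 0.00187) on the log2 scale from a mean of 0.156 and 0.114 CPM. Alpl, a phosphatase named here because it completes the group, fell by 0.30 and 0.23 (adjusted p = 0.00237 and 1.96e-05).

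In adenosine uptake and metabolism, 10 of 17 tested genes changed with nApoE4 (4 higher, 6 lower) and 11 of 17 with nApoE3 (5 higher, 6 lower), which is close to the 57.2% and 67.7% of all tested genes. The median log2 fold change was −0.031 and 0.039. Ampd3, which deaminates AMP and so draws it away from adenosine, went from 2.56, 2.03 and 4.63 CPM to 52.7, 59.3 and 49.6 CPM with nApoE4. It went from 2.89, 3.05 and 3.03 CPM to 27.5 and 32.4 CPM with nApoE3. The log2 fold changes of Ampd3 were 4.13 (adjusted p = 2.64e-07) and 3.32 (adjusted p = 2.29e-12). Their difference of 0.80 had an adjusted p of 0.0469, and it passed in 3 of 15 alternative analyses. Of the Ampd3 span, 36.2% is shared with other genes.

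Pnp, which splits inosine and guanosine, rose from a mean of 76.0 to 201 CPM with nApoE4 and from 84.4 to 219 CPM with nApoE3, with log2 fold changes of 1.41 (adjusted p = 4.39e-07) and 1.37 (adjusted p = 7.74e-13). Their difference was 0.030 (95% interval −0.17 to 0.23, adjusted p = 0.864). Slc28a2, a sodium-coupled importer of purine nucleosides, rose from 9.12 to 30.9 CPM with nApoE4 (log2 fold change 1.77, adjusted p = 7.68e-07) and from 1.72 to 7.42 CPM with nApoE3 (2.104, adjusted p = 2.05e-08). Nt5c1a, a cytosolic nucleotidase that forms adenosine from AMP, rose by 1.92 with nApoE4 (adjusted p = 0.000161) to a mean of 1.10 CPM, and had too few counts to be tested with nApoE3. Near-identical Pnp2 had 200 counts over all samples, and reads could be split between it and Pnp.

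Ada, which deaminates adenosine, had a log2 fold change of −0.33 with nApoE4 (adjusted p = 0.0404) and 0.039 with nApoE3 (adjusted p = 0.760), and the former passed in 5 of 11 alternative analyses. Adk, which phosphorylates adenosine, was at −0.23 (adjusted p = 0.0210) and −0.060 (adjusted p = 0.119), and the former passed in 8 of 11. The main plasma membrane nucleoside carrier, Slc29a1, was at a mean of 165 to 171 CPM in all 4 groups, with 95% intervals of −0.13 to 0.11 and −0.019 to 0.097. Slc29a3, a carrier of lysosomes and mitochondria, fell by 1.35 with nApoE4 (adjusted p = 1.30e-06) and by 0.70 with nApoE3 (adjusted p = 8.84e-10), with a difference of −0.66 (adjusted p = 0.000590).

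All 3 tested genes of nucleotide release changed with both fragments, where 57.2% and 67.7% of all tested genes did so. The median log2 fold change was −0.38 with nApoE4 and −0.35 with nApoE3. Panx1, a channel through which ATP leaves the cell, fell from 39.3 to 30.1 CPM with nApoE4 (log2 fold change −0.38, adjusted p = 0.00136) and rose from 29.0 to 33.0 CPM with nApoE3 (0.18, adjusted p = 0.00184). The difference was −0.57 (adjusted p = 0.000418). Slc17a9, which loads ATP into vesicles, fell by 0.91 and 0.35 (adjusted p = 1.96e-06 and 0.000123), and Lrrc8a, a subunit of the volume-regulated anion channel, fell by 0.27 and 0.41 (adjusted p = 0.00753 and 0.000144). These 2 genes are named because they complete the group.

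Downstream of the receptors, 24 of 33 tested genes changed with nApoE4 (9 higher, 15 lower) and 27 of 34 with nApoE3 (6 higher, 21 lower). The shares of all tested genes were 57.2% (28.6% higher and 28.6% lower) and 67.7% (33.1% higher and 34.6% lower), and the median log2 fold change was −0.12 and −0.31. Pde4b, a phosphodiesterase that breaks down cyclic AMP, had the largest rise in all 5 lists. It went from 6.95, 7.27 and 7.48 CPM to 171, 165 and 164 CPM with nApoE4, and from 9.63, 10.4 and 11.7 CPM to 126 and 123 CPM with nApoE3. The log2 fold changes of Pde4b were 4.53 (standard error 0.065, adjusted p = 1.22e-10) and 3.56 (standard error 0.052, adjusted p = 4.55e-14), and their difference was 0.97 (adjusted p = 8.15e-06). Over all 6 tested phosphodiesterases, Pde4b included, 2 rose and 2 fell with nApoE4, and 1 rose and 5 fell with nApoE3, beside the shares just given for all tested genes.

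Adenylyl cyclases, which make cyclic AMP, changed for 4 of 6 tested genes with nApoE4 (1 higher, 3 lower) and for 2 of 6 with nApoE3 (both lower), beside the same 57.2% and 67.7% of all tested genes. Adcy7, a form known from myeloid cells, fell from 245 to 133 CPM with nApoE4 (log2 fold change −0.87, adjusted p = 3.21e-05) and from 231 to 110 CPM with nApoE3 (−1.08, adjusted p = 2.77e-12). Adcy9 fell by 1.06 and 0.32 (adjusted p = 2.05e-05 and 0.000260), with a difference of −0.76 (adjusted p = 0.00117). Adcy6 held 57, 37 and 56 counts in the nApoE4 controls and 6, 4 and 6 with nApoE4, a log2 fold change of −3.09 (adjusted p = 2.77e-05). In the nApoE3 experiment it held 15, 9 and 14 counts in the controls and 6 and 5 with the fragment, which did not pass (−1.06, adjusted p = 0.0682), and the difference was −2.04 (adjusted p = 0.0185; 0.103 without nApoE3 replicate 1 and 0.0571 without nApoE3 replicate 2). Plcb4, a phospholipase C that acts below receptors such as P2ry1 and P2ry2, rose by 0.87 (adjusted p = 0.00162) and 1.40 (adjusted p = 2.78e-05) from low levels.

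**Figure D4:**
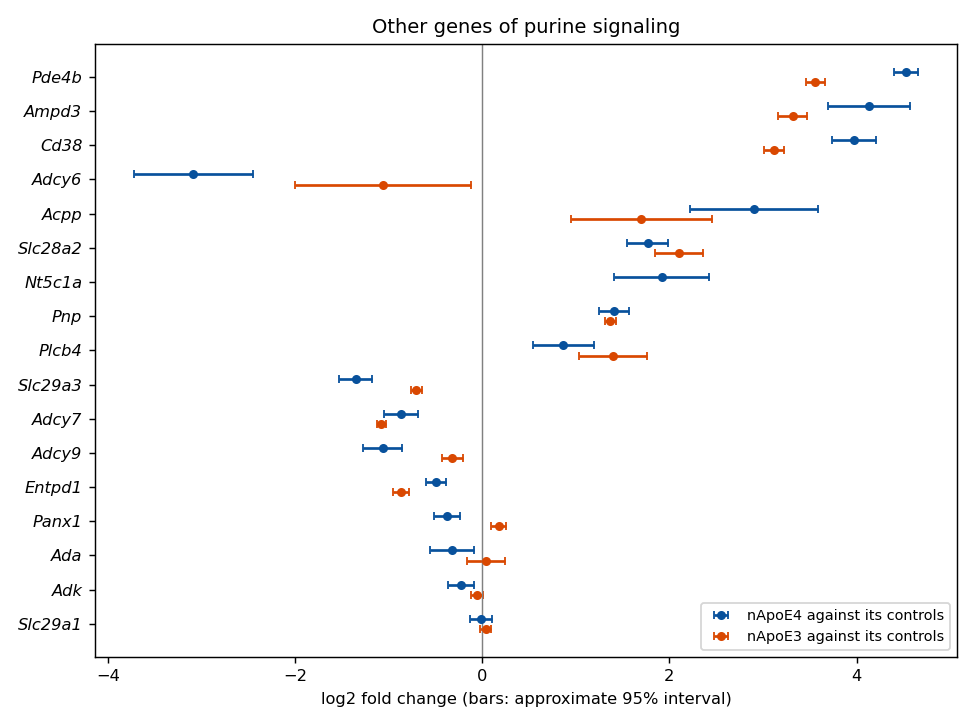
Log2 fold change with each fragment against its own controls for 17 of the named genes of purine signaling, with approximate 95% intervals as bars. Pde4b, Ampd3 and Cd38 lie above 3 for both fragments, Panx1 lies on opposite sides of 0, and Nt5c1a has a value for nApoE4 alone because it was not tested with nApoE3.

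Genes with the profile closest to that of Adora2a were found by the root mean square difference of centred log2 CPM over the 11 samples, among 15287 genes. Since Adora2a was chosen for this profile, the nearest genes had to be ones that were higher with both fragments. With so few counts in its controls, the distances also depend on the prior count of 2. The nearest were Il27 (0.39), Traf1 (0.62), Cd40 (0.65), Zfp811 (0.67) and Bcl2a1a (0.69). Il27, a cytokine subunit, had mean levels of 0.0985 CPM in the nApoE4 controls, 17.8 CPM with nApoE4, 0.139 CPM in the nApoE3 controls and 9.81 CPM with nApoE3. Cd40, a costimulatory receptor, had means of 15.2, 862, 11.6 and 421 CPM in these groups in turn. Bcl2a1a belongs to a family of near-identical copies, so its counts are uncertain.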

How the data were processed

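RNA from 11 samples of BV2 cells was sequenced as single-end reads. The authors trimmed reads with Trim Galore 0.5.0, checked them with FastQC 0.11.8, mapped them to GRCm38.p6 with HISAT2 2.1.0 and counted them with HTSeq 0.11.0, and deposited raw counts per gene without normalization for 36529 symbols. The annotation release, overlap mode and strand setting of the counting are not given in the sources used here. Genes accounted for 76.0 to 77.7% of all tallied reads, unaligned reads included, reads that fell on more than 1 gene for 3.24 to 3.56%, and reads mapped to several places for 11.7 to 13.2%. These rows stayed out of library sizes and tests.

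Groups followed the labels. Tests were run with edgeR 4.0.16 and limma 3.58.1 under R 4.3.3 (filterByExpr, TMM, quasi-likelihood F test, Benjamini-Hochberg adjustment over all genes, threshold 0.05). Treated samples were set against the controls of their own experiment, and the difference was fitted over all 11 samples with 4 group means. Standard errors were derived from the F statistic, and 95% intervals are approximate. CPM used TMM factors over all samples. Profiles were compared on log2 CPM with a prior count of 2. Gene spans and promoters came from RefSeq and exons from GENCODE, both on GRCm38.p6. The self-test used simulated counts.

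The members, the 5 lists and the tests were chosen with earlier results of these data known, and the GC box was added after the sequences were seen. Named genes were all 10 members, up to 15 genes of the lists with an adjusted p below 0.05, an absolute log2 fold change above 1 with either fragment and a group mean of 1 CPM or more (12 met this), Entpd1, Nt5e, Ada, Adk, Panx1, Slc29a1, P2ry12, P2ry13 and P2ry14 whatever their values, and the 5 genes closest in profile to Adora2a. P2rx3, Alpl, Slc17a9 and Lrrc8a were named outside this rule, after their values were seen. Alternatives were DESeq2 1.42.0, its size factors in edgeR, no filter, all 11 samples in one fit, a replicate block, a threshold of 2-fold, total counts for Adora2a, and leaving out each sample.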

Additional observations from a re-analysis of the deposited data

Results flagged for a closer look

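The change with nApoE4 differed from the change with nApoE3 for 12 of the genes named by the stated rule, where 28.3% of all tested genes passed. The test was edgeR's quasi-likelihood test of the difference with Benjamini-Hochberg adjustment over all genes. Many named genes were picked for a change above 2-fold with either fragment, so this count cannot be read against that share. Since each fragment was given in an experiment of its own, fragment and experiment cannot be told apart in any of the 12 genes. Among the receptors, the log2 difference (nApoE4 minus nApoE3) was −1.59 for Adora2b, 0.31 for P2rx4, 1.27 for P2ry1 and −0.57 for P2ry2. The P2rx4 difference passed in 10 of 15 alternative analyses. Adora2b started from a lower level in the nApoE4 controls (2.03 CPM) than in the nApoE3 controls (4.66 CPM), a log2 difference of −1.18. P2rx4 (−0.46), P2ry2 (−0.37) and P2ry1 (−0.21) were also lower in the nApoE4 controls at the threshold. The part of these gaps in the differences was not tested.

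Among the other genes of the pathway, the difference was positive for Pde4b (0.97), Ampd3 (0.80), Cd38 (0.85) and Entpd1 (0.35). It was negative for Adcy6 (−2.04), Slc29a3 (−0.66), Adcy9 (−0.76) and Panx1 (−0.57). Ampd3 passed in 3 of 15 alternative analyses and Adcy6 in 13 of 15, and Entpd1 did not pass with a replicate block (adjusted p = 0.0519). P2rx3 (1.40) and Slc17a9 (−0.58), named outside the rule after their values were seen, passed the same test. In Panx1 the change itself had opposite signs with the fragments. Among these pathway genes, the control groups also differed at the threshold for all but Ampd3. The gap was largest for Adcy6 (log2 2.48, nApoE4 controls minus nApoE3 controls) and Cd38 (−1.76), and the part of such gaps in the differences was not tested. Adcy6 held 57 counts or fewer in any sample. Groups of 2 or 3 samples are too small for a formal search for outlying values of single genes.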

How the results depend on the processing

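Over the 6 tested receptors in 4 comparisons, 267 of 282 alternative values kept their direction and their side of the threshold, 5 no longer passed, 7 passed newly and 3 changed sign. With the additional requirement of a change above 2-fold, the receptors that passed went from 6 to 1 with nApoE4, from 5 to 3 with nApoE3, from 4 to 2 for the difference and from 5 to 1 between control groups. The other genes of the pathway went from 42 to 10, from 46 to 10 and from 23 to 2 in the first 3 of these, of 59, 61 and 61 tested (17.7%, 16.2% and 5.93% of all tested genes). With a replicate block, 14 pathway genes passed for the difference in place of 23. Over all 15287 tested genes, 2307 then passed for the difference in place of 4331. The receptors that passed under the block were 6, 5, 3 and 5. P2rx4 lost its difference under the block (adjusted p = 0.106), and Entpd1 and Ampd3 lost theirs (adjusted p = 0.0519 and 0.160). Same-numbered samples had residual correlations of −0.17 to −0.0079, so no pairing by number was seen. Groups of 2 or 3 samples are too small to exclude one.

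When each sample was left out, the receptors that passed numbered 6 to 6 with nApoE4, 5 to 5 with nApoE3, 3 to 5 for the difference and 5 to 6 between controls, and the pathway genes 39 to 43, 42 to 46 and 15 to 28 (15 without nApoE3 replicate 2). The fold of Adora2a against its floor ranged from 121 to 127 with nApoE4, where the fixed floor limits any movement. With nApoE3 its fold ranged from 51.7 to 80.0, the lowest without nApoE3 controls replicate 1. Without nApoE3 controls replicate 3, the remaining controls held 3 counts or fewer, and the fold was taken against the floor. The range is therefore not one of the ratio of means alone and understates how far that ratio moves. The ratio of summed counts of Adora2a, added as an alternative after seeing the data, ranged from 185 to 759 with nApoE4 and from 52.5 to 157 with nApoE3. With total counts in place of TMM these folds were 117 (from 124) and 70.6 (from 77.6).

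Signs changed for single genes that had not passed. On leaving out each sample, log2 fold changes with nApoE4 ranged from −0.56 to 0.37 for Nt5e and from −0.042 to 0.024 for Slc29a1. With nApoE3 they ranged from −0.046 to 0.060 for P2rx4 (−0.0015 without a filter), from −0.026 to 0.10 for Ada and from −0.0042 to 0.081 for Slc29a1. The difference ranged from −0.96 to 0.14 for Nt5c1a (0.074 with the replicate block) and from −0.012 to 0.12 for Pnp, and Ampd3 between controls from −0.37 to 0.28 (−0.011 with the block). The causes were not tested. Counts in the controls limit Adora2a, Adora1 and P2rx1, and with 2 nApoE3 samples the spread of that group rests on 1 degree of freedom.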
